A study of Mus musculus with 100 samples.

Results

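The adipocyte comparison set libraries labelled Gps2 knockout against libraries labelled wild type in adipocytes isolated from the intra-abdominal fat of mice. Its members were chosen by the column names of the adipocyte table that match a sample title, which gave 5 of the 100 samples of the series. These were 2 libraries labelled knockout (KO 1 and KO 2) and 3 labelled wild type (WT 1, WT 2 and WT 3). All came from mice of 19 weeks on a high fat diet, of 12 weeks by the name of the table. The strain label, Adipoq-Cre-Gps2flox/flox, is the same for both genotypes, so the genotype stands in the titles only, and whether the wild-type mice carry the Cre or the floxed alleles is not given. In this model the adiponectin (Adipoq) promoter drives Cre in adipocytes, so other cells of the fat are meant to keep Gps2. Nothing says whether a library comes from 1 mouse or from several, so the spread behind each p-value may be technical rather than between animals.

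GPS2 is a small subunit of the NCoR corepressor complex, which nuclear receptors and other transcription factors recruit to hold genes down. It also inhibits the enzyme UBC13, which builds K63-linked ubiquitin chains in TNF and Toll-like receptor signalling, and it moves between mitochondria and the nucleus. In fat it is known for restraining inflammatory genes and for supporting mitochondrial genes and lipolysis. The comparison asks which genes differ in the adipocytes themselves, apart from the other cells of the tissue.

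Values are normalised reads per gene, read on 1 transcript each, and differences are knockout minus wild type on the scale log2(normalised reads + 1), ± SE from limma with Benjamini-Hochberg adjusted p, called at 0.05. The libraries held 37062667 and 44744352 recovered reads in KO 1 and KO 2, against 36793661 to 38529652 in the wild-type libraries. WT 3 stood apart from the other wild-type libraries: the correlation of log values was 0.986 between WT 1 and WT 2, against 0.953 and 0.949 with WT 3. KO 2 correlated with WT 1 and WT 2 at 0.963 and 0.957, and more closely with KO 1, at 0.971. KO 1 correlated with WT 1 and WT 2 at 0.926 and 0.914. The summed macrophage markers were 61076 in WT 3, against 11360 to 12146 in WT 1 and WT 2 and 12784 to 24288 in the knockout libraries. The summed adipocyte identity genes were high and similar throughout, at 3323904 and 3105476 in the knockout libraries and 3182555 to 3579580 in the wild-type libraries. Single members varied more. Of 23 tested none passed. With no overlap of the groups 5 were higher and 5 lower, against 20.7% and 27.3% of all genes. Their differences ran from -1.67 (Lep) to 2.11 (Cfd). The defining markers Adipoq, Plin1, Fabp4 and Cidec were abundant in every library, and their differences, 0.10 ± 0.31, 0.12 ± 0.25, -0.11 ± 0.22 and 0.10 ± 0.22, did not pass the test.

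Gps2 itself did not check the labels. The main transcript of Gps2 (gene at chr11:69913888-69916591, plus strand, GRCm38) had 811 and 839 normalised reads in the knockout libraries, against 851, 803 and 755 in the wild-type libraries, a difference of 0.04 ± 0.13 (adjusted p = 0.867). A shorter transcript of 5 middle exons (chr11:69914845-69915880) had 253 and 402 normalised reads in KO 1 and KO 2, against 425, 365 and 385 in the wild-type libraries. A transcript of the last 2 exons (chr11:69916041-69916556) had 427 and 302, against 317, 324 and 260. The ratio of middle to last exons was therefore 0.59 in KO 1 and 1.33 in KO 2, against 1.34, 1.13 and 1.48 in the wild-type libraries. KO 1 lay outside the wild-type range and KO 2 inside it. The same ratio in whole intra-abdominal fat of the same age and diet was 0.86 in the same-numbered KO 1 and 1.43 and 1.36 in KO 2 and KO 3, against 1.05, 1.28 and 1.20 in wild type. The labels do not say which exons the floxed allele removes, so the level of an exon checks the label only if that exon is deleted, and directions below hold for the libraries labelled knockout.

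A second description used genes from other libraries. In intra-abdominal fat of mice of 11 weeks after the shorter diet, of 4 weeks by the name of the table, 344 genes were called lower and 142 higher in the libraries labelled knockout (2.45% and 1.01% of genes tested there). Of 342 such lower genes tested in adipocytes, 248 (72.5%) lay below all wild-type libraries in KO 1 and 148 (43.3%) in KO 2, against 36.9% and 37.7% of all genes tested. Their median difference from the wild-type mean was -0.72 in KO 1 and -0.13 in KO 2. Of 137 such higher genes, 107 (78.1%) lay above all wild-type libraries in KO 1 and 60 (43.8%) in KO 2, against 31.1% and 28.7% of all genes, with medians of 0.98 and 0.30. KO 2 was thus nearer to wild type than KO 1 in these genes, as it was in the ratio of Gps2 exons.

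**Figure D1:**
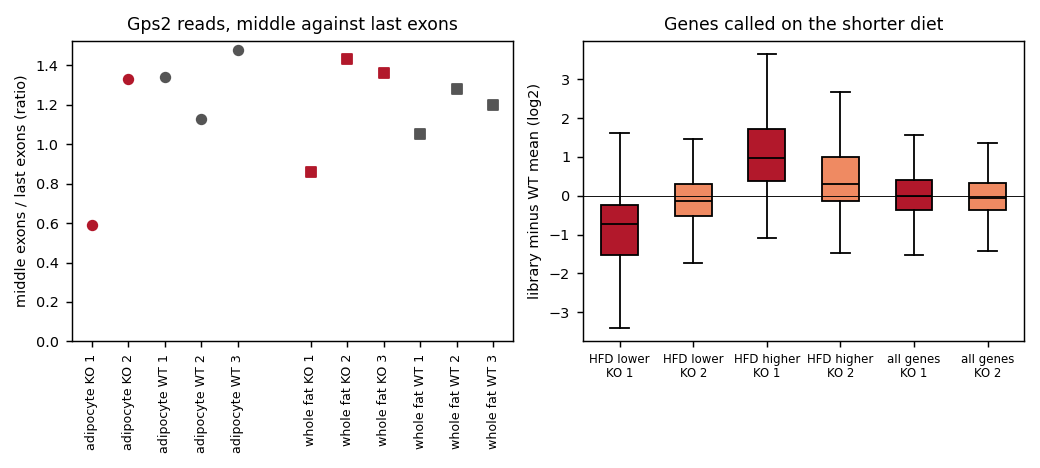
Left, the ratio of normalised reads on the middle to the last Gps2 exons in each adipocyte library (circles) and each whole-fat library (squares), with libraries labelled knockout in red and wild type in grey. Right, the difference of KO 1 (dark red) and KO 2 (orange) from the wild-type mean for the genes called lower or higher on the shorter diet and for all genes (boxes are quartiles over genes, whiskers reach 1.5 times their range). KO 1 has the lowest ratio, 0.59, and its boxes lie farther from 0 than those of KO 2.

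Across 14252 genes, 90 differed between the libraries labelled knockout and wild type (0.631%), of which 77 rose (0.54%) and 13 fell (0.0912%). Of the genes that rose, 16 stood in the list of immediate early genes, 3 in that of NF-kB genes and chemokines and 2 in that of endothelial markers, while 52 stood in no list. Their differences were 1.11 to 5.6, with a median of 2.51. The genes that fell were the inducible HSP70 pair, small structured RNAs, mitochondrial ribosomal RNA and 6 membrane, neuronal or centrosome genes. Before adjustment 3446 genes (24.2%) had a p under 0.05, with 1617 higher (11.3%) and 1829 lower (12.8%). The median over all genes was -0.044. The number called depended on the library set: it was 4 without KO 1 and 79 without KO 2, of which 32 were among the 90, and 3, 13 and 719 without WT 1, WT 2 and WT 3. Each of the 90 kept its direction in these 5 fits. On recovered reads edgeR called 114 (104 higher and 10 lower) and DESeq2 1800 (1012 higher and 788 lower), with 87 and 90 of the 90 among them, and limma without trend or robust moderation called none, with 3039 at an unadjusted p under 0.05.

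Immediate early genes encode transcription factors and feedback regulators whose transcription starts rapidly, without new protein synthesis, when cells meet growth factors, cytokines, stress or mechanical force. Of 24 such genes, all tested, 16 rose and none fell. All 24 had higher values with no overlap of the groups, against 20.7% of all genes tested, and their median difference was 2.73. Together they took 1.13% and 1.46% of all normalised reads in KO 1 and KO 2, against 0.303%, 0.346% and 0.238% in WT 1, WT 2 and WT 3. In whole fat the same genes took 0.0501% to 0.0739% in knockout and 0.0584% to 0.0722% in wild-type libraries, so every adipocyte library lay above every whole-fat library.

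The AP-1 subunits, which pair to bind DNA as FOS-JUN dimers, were among the most abundant. Fos had 64836 and 79831 normalised reads in the knockout libraries, against 15973, 17326 and 12776 in the wild-type libraries, a difference of 2.24 ± 0.21 (adjusted p = 0.0200). Fosb had 30886 and 54115, against 3872, 5095 and 3405 (3.33 ± 0.30, adjusted p = 0.0175). Both knockout libraries lay far above the 3 wild-type libraries for each, and KO 2 was the higher of the pair. Junb (2.43 ± 0.19), Jund (2.22 ± 0.22) and Fosl2 (1.90 ± 0.14) rose too, while Jun, with 50795 and 62749 in knockout against 36246, 29879 and 16101 in wild-type libraries, did not pass (1.12 ± 0.37, adjusted p = 0.149). Of the Jund transcript 52.6% lies in exons of another gene, and reads of the pair may not be told apart.

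The zinc finger and stress factors rose with them. Egr2, which drives early adipocyte and myelin genes, had 5585 and 15584 normalised reads in the knockout libraries, against 412, 632 and 489 in the wild-type libraries (4.21 ± 0.44, adjusted p = 0.0293). Atf3, a stress-induced repressor, had 18006 and 27805, against 1987, 1550.1 and 1531 (3.74 ± 0.23, adjusted p = 0.00712). Klf2, known for holding endothelium quiet and for repressing adipocyte formation, had 1546 and 1224, against 121, 132 and 187 (3.24 ± 0.25, adjusted p = 0.0126). In none of these did the groups overlap. Egr1, at 48014 and 53552 against 27850.0, 31322 and 15847, was higher by 1.08 ± 0.32 without passing, and Nr4a1, an orphan nuclear receptor, by 2.82 ± 0.50 (adjusted p = 0.0766).

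Feedback inhibitors of cytokine and growth factor signals were among the largest differences. Rgs16, which shuts off G protein signals, had 1645 and 726 normalised reads in the knockout libraries, against 12.4, 26.1 and 30.7 in the wild-type libraries, the largest rise of all (5.6 ± 0.53, adjusted p = 0.0214). Socs3, the inhibitor that JAK-STAT signalling induces and that also blocks insulin and leptin receptors, had 13201 and 15298, against 208, 662 and 784 (4.90 ± 0.57, adjusted p = 0.0405). Rnd1, an atypical small GTPase, had 1027 and 814, against 30.3, 21.9 and 34.8 (4.96 ± 0.32, adjusted p = 0.00712). The lowest knockout library stood above the highest wild-type library by a wide margin in each. Zfp36, which speeds the decay of cytokine mRNAs, had 67858 and 89222, against 10378, 16210.4 and 10158 (2.70 ± 0.27, adjusted p = 0.0216). The antiproliferative Btg2 rose by 2.76 ± 0.30, the transcription factor gene Myc by 2.97 ± 0.33 and the MAP kinase phosphatase Dusp1 by 1.30 ± 0.18.

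**Figure D2:**
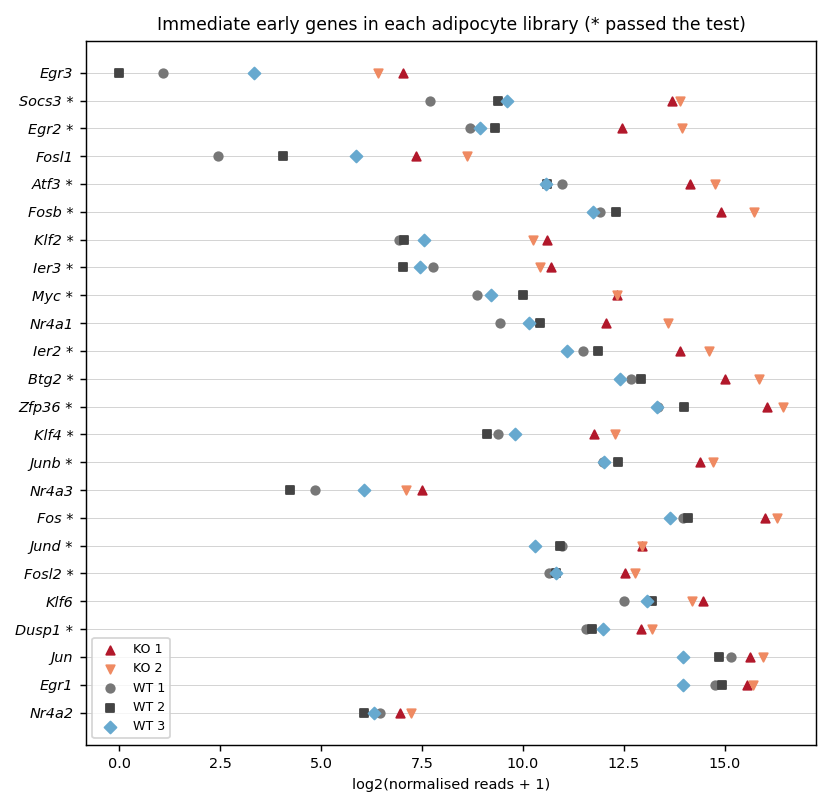
Each row is an immediate early gene and each point a library, placed by log2(normalised reads + 1), with rows ordered by the difference between the groups and an asterisk on genes that passed the test. In all 24 rows the red and orange knockout points lie to the right of the 3 wild-type points.

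The calls in this group rested on the libraries included. Of the 24 genes, 2 passed without KO 1, 8 without KO 2 and 20 without WT 3, and 16 passed under TMM scaling. KO 2 exceeded KO 1 in 19 of the 24, so the library whose Gps2 exon ratio lay within the wild-type range had the higher levels. The endothelial markers described below ran the other way, with KO 1 above KO 2 in 15 of 17, and their part in the levels of immediate early genes was not tested.

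Some sequence just upstream of these genes is shown because a short motif recurs in it. The motif TGACG, the core of the element through which CREB, ATF and AP-1-type factors act, was searched on both strands in the 250 bases before the RefSeq start nearest to the transcript read (GRCm38.p6), and is capitalised here in either orientation. It occurred in 12 of the 19 immediate early promoters in the table (63.2%), against 27.3% of 10547 tested genes with a promoter there, 29 of 62 genes that rose (46.8%) and 13 of 26 heat shock and unfolded protein genes (50%). The 12 were Fos, Fosb, Junb, Egr2, Atf3, Nr4a1, Nr4a2, Nr4a3, Dusp1, Btg2, Klf2 and Klf4. The list was itself built from genes known for rapid induction, so the share of 63.2% does not bear on the knockout. The genes that rose include members of this list and the heat shock list holds Atf3, so these sets are not separate. Of the other motifs, the NF-kB site described below was in 4 of the 19 (21.1%), against 4.5% of all, and the nuclear receptor core AGGTCA and the E-box CACGTG were in 5.3% and 15.8%, against 10.3% and 8.5% of all. The promoters of Rgs16 and Socs3, which rose more than Egr2, and of Hspa1a and Hspa1b, which fell, held none of the motifs searched. The 3 promoters below belong to those of the 12 genes with the motif that passed with the largest differences. They lie at chr10:67537619-67537868 on the plus strand for Egr2 and at chr1:191183334-191183583 and chr7:19310046-19310295 on the minus strand for Atf3 and Fosb.
Egr2: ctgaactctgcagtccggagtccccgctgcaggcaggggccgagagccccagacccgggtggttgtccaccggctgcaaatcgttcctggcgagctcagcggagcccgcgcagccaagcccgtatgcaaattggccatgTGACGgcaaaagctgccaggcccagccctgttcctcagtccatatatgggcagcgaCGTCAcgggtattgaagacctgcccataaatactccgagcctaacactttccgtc
Atf3: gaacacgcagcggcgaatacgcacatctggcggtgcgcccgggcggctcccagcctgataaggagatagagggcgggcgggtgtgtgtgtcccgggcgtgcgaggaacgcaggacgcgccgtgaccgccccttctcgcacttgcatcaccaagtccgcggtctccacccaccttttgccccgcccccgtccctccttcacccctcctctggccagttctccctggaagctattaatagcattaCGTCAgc
Fosb: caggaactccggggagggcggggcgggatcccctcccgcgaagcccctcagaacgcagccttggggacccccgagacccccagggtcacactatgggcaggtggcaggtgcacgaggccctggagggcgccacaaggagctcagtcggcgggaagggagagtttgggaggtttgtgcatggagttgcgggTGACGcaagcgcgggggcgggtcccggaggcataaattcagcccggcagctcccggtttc
In these windows no capitalised match overlapped a match to another motif searched. A match describes letters in a window and was not tested as a binding site, and Atf3 and Fosb were chosen after their values were seen.

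NF-kB regulators and chemokines formed the next group. Of 30 genes tested, 3 rose, none fell, 24 had higher values, against 46.7% of all genes, and the median difference was 1.26. Cxcl1, a chemokine that attracts neutrophils, had 7819 and 8760.1 normalised reads in the knockout libraries, against 1197, 1329 and 1558 in the wild-type libraries (2.61 ± 0.16, adjusted p = 0.00712). Nfkbia, the inhibitor that holds NF-kB in the cytoplasm, had 7429 and 6449.7, against 1659.7, 1877 and 2464 (1.81 ± 0.20, adjusted p = 0.0293). Tnfaip3, the ubiquitin-editing enzyme A20 that ends TNF signalling, had 6806 and 5260.3, against 894, 1304 and 1709.9 (2.25 ± 0.29, adjusted p = 0.0483). Both knockout libraries exceeded all wild-type libraries in these 3, and all 3 are themselves NF-kB targets.

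Outside the list, Nfkbiz, a nuclear co-regulator of NF-kB, had 13442 and 18344 normalised reads in the knockout libraries, against 785, 1605 and 1058 in the wild-type libraries (3.83 ± 0.32, adjusted p = 0.0175). Irf1, an interferon-induced transcription factor, had 8819 and 7485, against 776, 952 and 1001 (3.17 ± 0.16, adjusted p = 0.00692). It was the single gene of 27 interferon-response genes that passed, and the median of that list was 0.00. Arid5a, which stabilises Il6 mRNA, had 1994 and 2329, against 152, 219 and 212 (3.48 ± 0.21, adjusted p = 0.00712). Il6 itself had 381 and 139, against 5.62, 9.39 and 68.6, and did not pass (3.78 ± 1.09, adjusted p = 0.129). Tnf and Ccl2 overlapped between the groups: Ccl2 had 1446 and 1077 in the knockout libraries, against 445, 466 and 2316 in the wild-type libraries.

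The calls in this list depended on WT 3 and on the knockout libraries. Without WT 3, 14 of the 30 genes passed, without KO 1 none and without KO 2 just 1, and 26 of the 30 were higher in KO 1 than in KO 2. The summed genes of this list were 44252 and 35487 in KO 1 and KO 2, against 12902, 13670 and 30765 in WT 1, WT 2 and WT 3. The summed macrophage markers given above had another order, highest in WT 3 and then in KO 1. The part of macrophages in the levels of this list was not tested. Among 18 genes of K63 ubiquitin and TNF receptor signalling, the pathway in which GPS2 restrains UBC13, Tnfaip3 was the only one to pass, and the median was -0.06. Ube2n, which encodes UBC13, was lower without passing (-0.65 ± 0.19, adjusted p = 0.127), and Ripk1, the kinase at the TNF receptor, was higher (0.63 ± 0.14, adjusted p = 0.0874). The 8 corepressor subunits, Ncor1, Hdac3 and Tbl1x among them, held no passing gene (median 0.20).

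A motif bound by NF-kB, chosen after the values were seen (its standard site, searched on both strands in the same windows) was present in 9 of 20 promoters of the NF-kB list (45.0%), against 4.5% of all. The 9 were Nfkb2, Rel, Nfkbia, Nfkbie, Tnfaip3, Il6, Cxcl1, Cxcl2 and Cxcl10. The list was itself built from NF-kB factors, cytokines and chemokines, so this share does not bear on the knockout. The promoters of the 2 passing genes with the smallest p among them, chr12:55492648-55492897 on the minus strand for Nfkbia and chr5:90890995-90891244 on the plus strand for Cxcl1, carry it in capitals, in Cxcl1 as 2 overlapping matches.
Nfkbia: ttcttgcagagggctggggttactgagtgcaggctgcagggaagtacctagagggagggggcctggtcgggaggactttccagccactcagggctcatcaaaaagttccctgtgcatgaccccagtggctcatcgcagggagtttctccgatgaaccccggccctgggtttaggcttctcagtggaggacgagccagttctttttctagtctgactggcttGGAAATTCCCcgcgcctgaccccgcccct
Cxcl1: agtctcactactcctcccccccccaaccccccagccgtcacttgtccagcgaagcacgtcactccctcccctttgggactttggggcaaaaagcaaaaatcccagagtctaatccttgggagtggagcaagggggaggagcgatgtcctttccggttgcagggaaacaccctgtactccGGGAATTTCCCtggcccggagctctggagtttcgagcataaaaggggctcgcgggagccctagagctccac

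Markers of blood vessel endothelium were higher in the knockout libraries. Of 17 endothelial markers tested (Prox1 was below the minimum), Robo4 and Sox17 rose, all 17 had higher values with no overlap of the groups, against 20.7% of all genes tested, and the median difference was 2.81. Their summed level was 58240 and 26145 in KO 1 and KO 2, against 6424, 3850 and 7036 in the wild-type libraries, a ratio of group means of 7.31. They took 0.154% and 0.0659% of all normalised reads in the knockout libraries, against 0.0155%, 0.00958% and 0.0183% in the wild-type libraries, and 0.195% to 0.255% in whole fat. In bulk libraries such as these more endothelial cells and more RNA per cell cannot be told apart.

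The vascular receptor gene Robo4 had 3271 and 1829.7 normalised reads in the knockout libraries, against 389.9, 295 and 356 in the wild-type libraries (2.82 ± 0.27, adjusted p = 0.0216). Sox17, a transcription factor of arteries, had 743 and 385, against 39.3, 45.9 and 64.5 (3.43 ± 0.39, adjusted p = 0.0329). Cdh5, the cadherin of endothelial junctions, had 11110.0 and 4922, against 1272, 660.3 and 1216, and Pecam1 had 8226 and 3452, against 798, 466 and 917. KO 1 was above KO 2 in all 4 of these and both were above all wild-type libraries. Cdh5 and Pecam1 missed the threshold (adjusted p = 0.0628 each). Vwf and Lyve1 were the 2 of 17 in which KO 2 was the higher.

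Several genes outside the list that rose are also known from endothelium: S1pr1, the receptor for sphingosine 1-phosphate (4268 and 1947 in the knockout libraries, against 296, 214 and 445 in the wild-type libraries), Ptprb, the vascular phosphatase (5792 and 3464, against 662, 454 and 662), Notch4 (1484 and 910.0, against 210.1, 171 and 203) and Apold1 (3449.8 and 1329, against 76.4, 113 and 194). Gpihbp1, which carries lipoprotein lipase across capillaries, was higher by 2.47 ± 0.37 without passing (adjusted p = 0.0628). Lpl, the lipase itself, which adipocytes make, had 538089 and 459488 in the knockout libraries, against 892970.0, 784165 and 870245 in the wild-type libraries (-0.77 ± 0.23, adjusted p = 0.129).

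Markers of several other cell types that surround adipocytes were also higher, though not of all. All 10 mesothelial genes tested, which mark the lining of the abdominal cavity, had higher values with no overlap, against 20.7% of all genes (median 2.32), with sums of 1778 and 1143 in the knockout libraries, against 142, 195 and 728 in the wild-type libraries. Of 18 stromal and progenitor markers 16 had higher values, against 46.7% of all genes (median 1.02), and all 5 mast cell markers tested were higher (median 2.48, sums 677 and 312 against 106, 65.7 and 93.1). No gene of these lists passed. Macrophage markers, 17 of 24 higher with a median of 0.40, overlapped between the groups in all but 2 genes, and 23 of the 24 were higher in KO 1 than in KO 2. Of 10 smooth muscle and pericyte markers 6 had higher values (median 1.07). With no overlap 5 were higher, against 20.7% of all genes, and 3 were lower, against 27.3% of all genes. Their sum, in which Acta2 has the largest wild-type mean, was 15418 and 14530.4 in the knockout libraries, against 24441, 21161 and 34306 in the wild-type libraries. In the other lists few markers were tested and none passed. Values were lower, against 53.3% of all genes, in 2 of 2 T and NK cell and 2 of 2 neutrophil markers (medians -1.24 and -2.16). They were also lower in 2 of 3 B cell and 3 of 3 skeletal muscle markers (medians -0.28 and -1.17). All 5 red cell markers and the 1 mammary marker tested had higher values (medians 1.45 and 2.07). Without KO 1 no endothelial marker passed, without KO 2 there were 4, without WT 3 there were 14, and under TMM scaling 9.

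**Figure D3:**
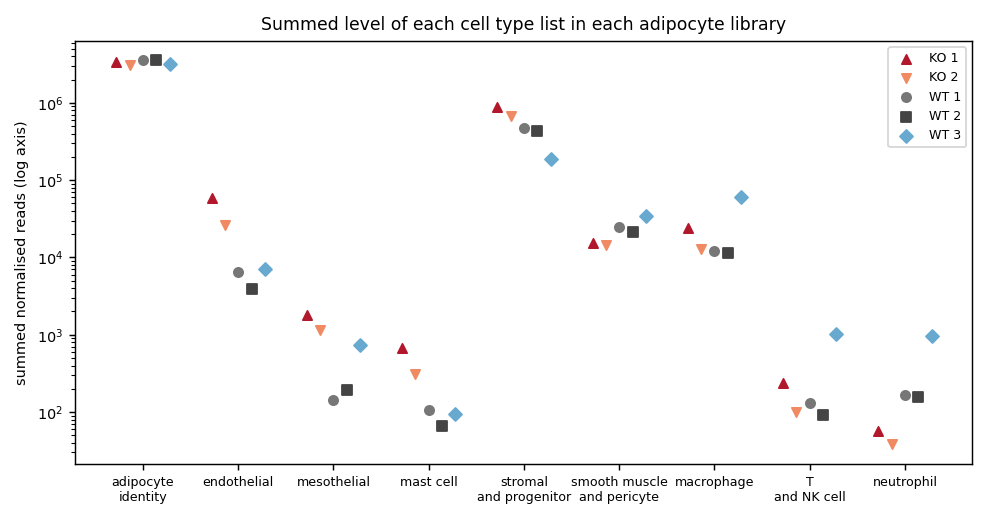
Summed normalised reads of each cell type list (log axis), with KO 1 and KO 2 left of WT 1, WT 2 and WT 3 in each group. Adipocyte genes lie level, endothelial, mesothelial and mast cell genes are highest in KO 1, and macrophage, T cell and neutrophil genes are highest in WT 3.

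Further genes that rose are named here after their values were seen. Ier5, a growth-factor-induced regulator, had 3850 and 3862 normalised reads in the knockout libraries, against 658, 579 and 765 in the wild-type libraries (2.54 ± 0.15, adjusted p = 0.00712). Ppp1r15a, the GADD34 subunit that restores translation after stress, had 4294 and 5134, against 1188, 1171 and 1321 (1.94 ± 0.14, adjusted p = 0.0118). Id3, which blocks basic helix-loop-helix factors, had 13595 and 15244, against 3490.1, 3427 and 4149 (1.97 ± 0.16, adjusted p = 0.0139). The groups were well apart in each. Cebpd, an early adipogenic factor, rose by 2.68 ± 0.29, the histone demethylase gene Kdm6b by 1.68 ± 0.20, the bromodomain gene Brd2 by 1.51 ± 0.20 and Zc3h12a, an RNase of cytokine mRNAs, by 1.75 ± 0.23.

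The 13 genes that fell included the stress-inducible HSP70 genes. Hspa1a and Hspa1b encode the same heat-induced chaperone from neighbouring genes, at chr17:34969190-34972156 and chr17:34956436-34959238 on the minus strand. Hspa1a had 1182 and 864 normalised reads in the knockout libraries, against 16096, 15414 and 12962 in the wild-type libraries (-3.87 ± 0.19, adjusted p = 0.00692). Hspa1b had 768 and 352, against 17449, 16449 and 13766 (-4.92 ± 0.33, adjusted p = 0.0118). The groups were far apart in both. The copies are nearly identical, so the division of reads between them is uncertain. Summed, they had 1949 and 1216 in the knockout libraries, against 33546, 31864 and 26728 in the wild-type libraries, which was 19.4 times the knockout mean. They took 0.00515% and 0.00306% of normalised reads in the knockout libraries and 0.0693% to 0.0811% in the wild-type libraries, and 0.000471% to 0.00104% in all whole-fat libraries.

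The other heat shock genes moved less. Of 29 genes of heat shock and the unfolded protein response, the HSP70 pair fell, Atf3 rose and the rest did not pass (median 0.01). Bag3, the HSP70 co-chaperone, had 3885 and 4098 in the knockout libraries, against 7535, 7323 and 7289.7 in the wild-type libraries (-0.89 ± 0.13, adjusted p = 0.0550). Hspb1, the small chaperone HSP25, had 1636 and 2903, against 5754, 5207 and 5616 (-1.34 ± 0.25, adjusted p = 0.0792). The mitochondrial chaperonin subunit Hspe1 differed by -0.96 ± 0.16 (adjusted p = 0.0673). The endoplasmic reticulum chaperone Hspa5 overlapped between the groups (0.08 ± 0.27), as did the co-chaperone Dnajb1, at 0.79 ± 0.36.

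Structured RNAs that carry no long poly(A) tail fell as well, in libraries made with an mRNA kit. Rpph1, the RNA of the enzyme RNase P, had 2 reads in each knockout library, against 403, 413 and 148 normalised reads in the wild-type libraries. With counting error alone the wild-type rate was 168 times the knockout rate (95% exact interval 65.3 to 617), and its fitted difference was -6.65 ± 0.56 (adjusted p = 0.0158). Rmrp, the RNA of RNase MRP, had no read in either knockout library, against 82.0, 63.6 and 25.6 normalised reads in the wild-type libraries. Set against a floor of 3 reads per knockout library it was at least 19.9-fold lower. Rmrp lies wholly, and Rpph1 for 73.0%, in exons of other genes, and whether the counting used the strand is not given, so reads of such neighbours may not be told apart. Gm8696, a predicted gene that lies beside Hspa1b, was also at 0 in both.

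From the mitochondrial genome, mt-Rnr2, the large ribosomal RNA, had 42520.3 and 52400.1 normalised reads in the knockout libraries, against 484892, 448130.0 and 246685 in the wild-type libraries (-3.0 ± 0.34, adjusted p = 0.0329). The adjoining transfer RNA gene mt-Tl1 fell by 2.21 ± 0.20 on the log2 scale (adjusted p = 0.0175). Both ribosomal RNAs together took 0.201% and 0.247% of normalised reads in the knockout libraries, against 1.67%, 1.49% and 0.856% in the wild-type libraries. Of the 8 protein genes of that genome tested, none passed, 6 had lower values, against 53.3% of all genes, and the median was -0.18. With no overlap of the groups 3 of the 8 were lower, against 27.3% of all genes: mt-Nd1, mt-Nd2 and mt-Co2, at -0.31, -0.31 and -4.02. The difference of mt-Co2 rests on WT 2, as it was at 0 in both knockout libraries, against 1.12, 991 and 1.02 in WT 1, WT 2 and WT 3. The other 5 overlapped, among them mt-Co1, mt-Cytb and mt-Nd4 with differences of -0.21 ± 0.30, -0.07 ± 0.30 and -0.14 ± 0.28. Whether the share of the mitochondrial ribosomal RNAs, or of Rpph1 and Rmrp, moved with library preparation was not tested.

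**Figure D4:**
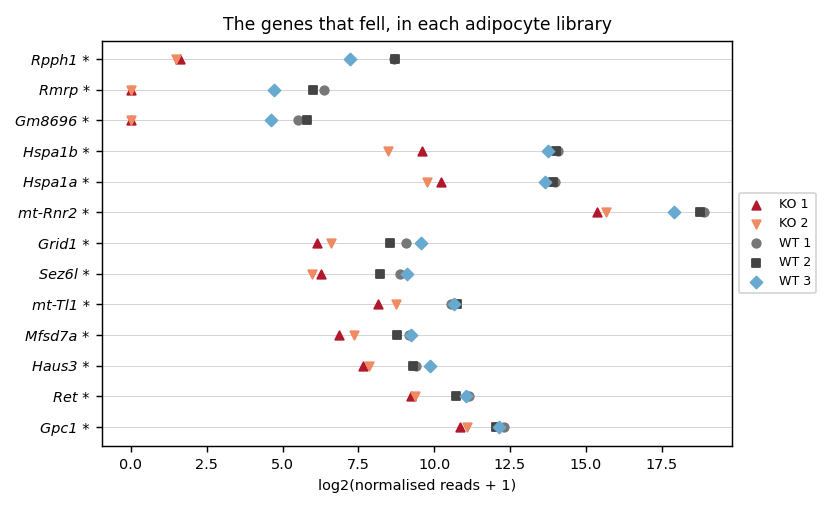
Each row is a gene that fell and each point a library, placed by log2(normalised reads + 1). The red and orange knockout points lie to the left of all wild-type points in each row, at 0 for Rmrp and Gm8696.

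The remaining genes that fell have known roles at the cell surface, in neurons or in cell division, and had lower values in whole fat too. Ret, the receptor for GDNF-type neurotrophic factors, had 605 and 655 normalised reads in the knockout libraries, against 2269, 1680.5 and 2124 in the wild-type libraries (-1.67 ± 0.17, adjusted p = 0.0216). Gpc1, a heparan sulphate proteoglycan, had 1853 and 2187, against 5032, 4226 and 4496 (-1.18 ± 0.15, adjusted p = 0.0412). Grid1, a glutamate receptor of the delta type, had 68.5 and 96.7, against 542, 373 and 753 (-2.70 ± 0.34, adjusted p = 0.0426). Sez6l, a neuronal membrane protein, had 76.7 and 62.1, against 466, 292 and 546. Mfsd7a, a transporter-family gene, and Haus3, a subunit of the augmin complex of the spindle, fell by 1.94 ± 0.24 and by 1.76 ± 0.22. In whole fat of the same age the differences of these 6 ranged from -2.46 (Grid1) to -1.03 (Haus3 and Gpc1) without passing there, and the difference between adipocytes and whole fat did not pass for any of them.

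Whole intra-abdominal fat of the same age and diet, with 3 libraries of each label, was set beside the isolated cells. In this comparison an effect within adipocytes, a different content of other cells and an effect of isolation cannot be told apart. Its own comparison called none of 17194 genes by limma, with 1625 (9.45%) at an unadjusted p under 0.05, of which 609 were higher (3.54%) and 1016 lower (5.91%). The knockout effect in adipocytes minus that in whole fat passed for 235 of 14178 genes (1.66%), 230 higher (1.62%) and 5 lower (0.0353%). Before adjustment 1913 (13.5%) had a p under 0.05, with 1273 higher (8.98%) and 640 lower (4.51%). The adipocyte libraries enter both this test and the one above, so counts among genes or lists picked out above are not separate support. The count was 128, 107 and 661 without adipocyte WT 1, WT 2 and WT 3, 43 and 357 without adipocyte KO 1 and KO 2, and 33 to 129 without 1 of the 6 whole-fat libraries. Of the 77 genes that rose in adipocytes 66 passed it, and the median whole-fat difference of the 77 was 0.04. Among immediate early genes 15 of 24 passed (whole-fat median -0.14), among endothelial markers 11 of 17 (0.12), and among NF-kB and chemokine genes 3 of 26 (-0.51). With same-numbered libraries of both sources as a block these counts were 63 of the 77, 14 of 24, 15 of 17 and 7 of 26.

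Individual genes show the contrast. The Irf1 effect was 3.22 ± 0.22 larger in adipocytes than in whole fat (adjusted p = 0.000477), where it was -0.06 ± 0.14. Arid5a differed by 3.46 ± 0.27 between the sources and Rnd1 by 4.95 ± 0.41. In the other direction Hspa1a differed by -4.49 ± 0.35 and Hspa1b by -5.25 ± 0.43, since in whole fat both were a little higher in knockout (0.62 ± 0.33 and 0.33 ± 0.28). Of the 12 genes that fell and were tested here, 3 passed, which were the HSP70 pair and mt-Rnr2. The difference of Atf3 (4.20 ± 1.25, adjusted p = 0.158) did not pass. That of Fosb (2.92 ± 0.69, adjusted p = 0.0753) passed only with the block of same-numbered libraries (2.54 ± 0.28, adjusted p = 0.0149).

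**Figure D5:**
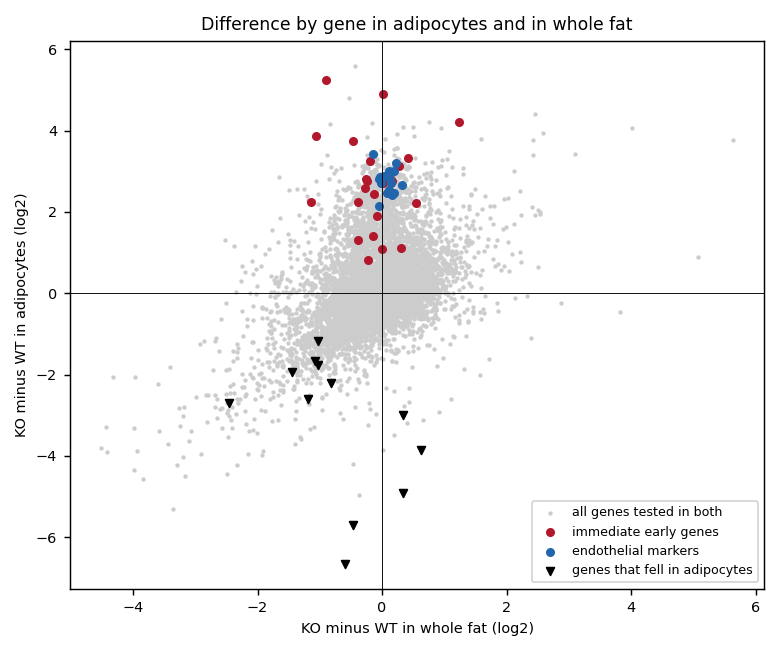
Knockout minus wild type (log2) of each gene in whole fat (x axis) and in adipocytes (y axis), with immediate early genes in red, endothelial markers in blue and the genes that fell as black triangles. Red and blue points lie at 0.81 or more on the y axis and mostly near 0 on the x axis.

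Adipocyte metabolism showed no passing gene in most lists. Fatty acid and triglyceride synthesis (26 genes, median 0.15), lipolysis and lipid droplets (19 genes, 0.10), fatty acid oxidation (26 genes, -0.24) and cholesterol synthesis (25 genes, -0.37) held none, and neither did thermogenic genes (11 genes, -0.99) or the tricarboxylic acid cycle (26 genes, -0.07). The thermogenic median was -0.39 without KO 1 and -1.11 without KO 2. Summed thermogenic genes were 9275 and 23926 in KO 1 and KO 2, against 14955 to 20091 in the wild-type libraries. Without WT 3 the cholesterol synthesis median was -0.08. Of 73 nuclear genes for subunits of oxidative phosphorylation, 66 had lower values, against 53.3% of all genes, and none passed. With no overlap 29 were lower, against 27.3% of all genes, and the median was -0.15. KO 2 carried more of this shift: KO 1 was above KO 2 in 62 of the 73. The median was -0.27 without KO 1 and -0.07 without KO 2. In whole fat the median of these genes was 0.29. Under TMM scaling the median of the 73 was -0.11 and that of all genes 0. Ndufab1, the acyl carrier subunit of complex I, had 1098 and 937 in the knockout libraries, against 1605, 1519.8 and 1769 in the wild-type libraries (-0.68 ± 0.14, adjusted p = 0.0848).

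Among single metabolic genes the groups separated for some that missed the threshold. Irs2, the insulin receptor substrate, had 9776 and 8559 normalised reads in the knockout libraries, against 3586, 4841 and 3136 in the wild-type libraries (1.27 ± 0.21, adjusted p = 0.0667). Fads1, a desaturase of polyunsaturated fatty acids, had 4720.4 and 2802, against 1493, 1512 and 1163 (1.40 ± 0.25, adjusted p = 0.0759). Vldlr, which takes up triglyceride-rich particles, differed by -0.98 ± 0.26 (adjusted p = 0.113). Kcnk3, a potassium channel that limits thermogenesis, had 167 in KO 1 and 1573 in KO 2, against 2495, 1562 and 2266 in the wild-type libraries, so KO 2 lay inside the wild-type range.

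Of 16 adipokines tested 1 rose, and the 2 named here did not pass. Lep, leptin, had 40289 and 46264 normalised reads in the knockout libraries, against 106318, 103321 and 236350.0 in the wild-type libraries, lower without passing (-1.67 ± 0.40, adjusted p = 0.0995). Cfd, adipsin, had 530127 and 255844, against 132607, 140979 and 32917 (2.11 ± 0.71, adjusted p = 0.159). Leptin was lower and adipsin higher in both knockout libraries than in all wild-type libraries, and WT 3 was at the far end of the wild-type range for both. Among hormone receptors, Npr1, the natriuretic peptide receptor, rose (1217 and 750.3 in the knockout libraries, against 201, 163 and 269 in the wild-type libraries, 2.20 ± 0.30), and in the matrix list Eln, elastin, rose (1032 and 1094 against 233, 177 and 347, 2.13 ± 0.29).

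Further lists showed small medians and no passing gene. Insulin signalling had 18 of 24 genes with higher values (median 0.24), and circadian genes 15 of 19 (median 0.31), against 46.7% of all genes. With no overlap of the groups 13 of the 24 and 9 of the 19 were higher, against 20.7% of all genes. Lower with no overlap were 2 of the 24 and 0 of the 19, against 27.3% of all genes. Per1, a clock gene that stress and cAMP also induce, differed by 1.21 ± 0.20 (adjusted p = 0.0667), and Nfil3, a clock output repressor, had 3433 and 4194 normalised reads in the knockout libraries, against 298.9, 670.7 and 1186 in the wild-type libraries (2.61 ± 0.55, adjusted p = 0.0890). Genes of glycolysis and hypoxia (30 genes, median -0.05), adrenergic and cAMP signalling (21 genes, -0.09), branched-chain amino acid breakdown (21 genes, 0.07) and the cell cycle (28 genes, 0.12) lay near the median of all genes. LXR targets (12 genes, 0.15) held Mylip, which degrades lipoprotein receptors, at 1.75 ± 0.39 without passing (adjusted p = 0.0937).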

How the data were processed

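Libraries were made with a stranded poly(A) mRNA kit, per the labels' protocols. Per the submitters' processing notes, the tools were STAR 2.4.0k, SAMtools, HTSeq 0.5.3, DESeq 1.8.3 and bcl2fastq 2.17 and the build was GRCm38.p4. No source used here says whether HTSeq counted by strand. The deposited values are a signal, read counts per Ensembl transcript divided by a size factor, and whole reads were recovered from every value within 0.01. Tables were normalised separately by the authors, and tests stayed within a table except for the difference between sources, which compares effects.

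Each gene was read on its transcript of highest mean (GENCODE M21). Genes with a mean of 10 or more were tested with limma 3.58.1 (R 4.3.3, trend and robust moderation, two-sided) on log2(value + 1), which understates changes of low genes, with Benjamini-Hochberg adjustment at 0.05. Adjusted p-values in the text are from limma. Alternatives used edgeR 4.0.16 and DESeq2 1.42.0 on recovered reads. The scripts were tested on simulated data with 200 changed genes. Rows that match no gene held 0.324% of values and were left out, as was 1 column that matches no sample title. Another sample titled as knockout adipocytes was not analysed here. Intervals and floors cover counting error only.

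Deviations of same-numbered knockout and wild-type adipocyte libraries correlated at r = -0.167 and 0.402, and these 2 numbers were not taken as pairs. Same-numbered adipocyte and whole-fat libraries of a genotype correlated in all 5 cases (r = 0.27 and 0.108 for KO, 0.294, 0.41 and 0.595 for WT), so these numbers may pair the libraries. The difference between sources is reported without this block, and with the block where that changes a call or moves a count by over 1.5 times.

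Genes named are up to 12 a direction that passed with the largest differences (mean at least 50, no overlap, no predicted or pseudogene name), the members of each list with the smallest p, and the 5 with the smallest p for the difference between sources. Others named, such as Gm8696, Il6, Tnf, Ccl2, Egr1, Jun and Kcnk3, were chosen after their values were seen. Some named results are not reported here. Members and lists were chosen with earlier results of these data known.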

Additional observations from a re-analysis of the deposited data

Results flagged for a closer look

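The knockout effect differed between isolated adipocytes and whole intra-abdominal fat, by limma's test of the difference, for 230 genes with a larger and 5 genes with a smaller value in adipocytes. The named genes with the larger value were Rnd1 (4.95), Nfkbiz (4.08), Arid5a (3.46), Klf2 (3.44) and Irf1 (3.22), each a difference of log2 effects, adipocytes minus whole fat. The 5 with the smaller value were Hspa1b (-5.25), Hspa1a (-4.49), mt-Rnr2 (-3.33), Bag3 (-0.84) and 1110038B12Rik (-1.07). With same-numbered libraries as a replicate block Bag3 was at -0.79 (adjusted p = 0.0743) and 1110038B12Rik at -1.15 (adjusted p = 0.0666), and neither passed. Of the 235 calls 165 were among those made with the block. The other 8 genes named here passed with it. The summed endothelial markers were 58240 and 26145 in KO 1 and KO 2 adipocytes, against 3850 to 7036 in wild-type adipocytes. KO 1 was above KO 2 in 15 of 17 of these markers and in 38 of the 77 genes that rose in adipocytes. The part of these markers in the rises was not tested.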

How the results depend on the processing

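In adipocytes 90 genes were called, 77 higher and 13 lower, and each kept its direction in every alternative that tested it. The count was 142 (127 higher) under TMM scaling and 394 (301 higher, 93 lower) with no filter on low values. It was 0 without trend or robust moderation, in either direction (3039 genes at an unadjusted p under 0.05), and 1800 (1012 higher, 788 lower) by DESeq2. The cause of these shifts was not tested. A minimum mean of 50, the other pseudocounts, the longest transcript and edgeR gave 77 to 114. Leaving out 1 library gave 3 to 719 calls, 2 to 557 higher and 0 to 162 lower, the lowest number without WT 1 and the highest without WT 3. Same-numbered adipocyte libraries are taken to share only a number, and with the replicate block 1425 genes were called (1121 higher, 304 lower). In that fit WT 3 has no same-numbered knockout library, so the effect rests on KO 1, KO 2, WT 1 and WT 2. It also leaves fewer residual degrees of freedom than the main fit. The difference between adipocytes and whole fat passed for 235 genes (230 higher, 5 lower), for 184 to 304 under the alternatives that keep all libraries, and for 233 (226 higher, 7 lower) with the replicate block, of which 165 were among the 235. Without 1 library it passed for 33 to 661, 31 to 654 higher and 2 to 12 lower. The adipocyte comparison has 2 knockout libraries and 3 residual degrees of freedom. Depth was 36793661 to 44744352 recovered reads in adipocyte and 29357014 to 58772202 in whole-fat libraries, and its effect on the calls was not tested.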

Other observations

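Some genes, chosen after their values were seen, had groups that did not overlap and lay in the same direction in the adipocytes, in whole fat of the same age and in fat of the shorter diet. Differences are knockout minus wild type on the log2 scale. Hs3st3b1, a heparan sulphate sulfotransferase, was at 4.42 in adipocytes, 2.46 in whole fat and 1.33 on the shorter diet. Cfd (adipsin) was at 2.11, 2.4 and 0.97 and Gsn, the actin-severing gelsolin, at 1.26, 1.06 and 0.91. On the lower side, Sfrp5, a secreted Wnt antagonist of fat, was at -3.54, -2.47 and -4.76, with 322 and 3946 normalised reads in KO 1 and KO 2, against 15474, 10251 and 14289 in the wild-type adipocytes. Atp1a4 was at -3.91, -4.42 and -2.38, Lipf at -3.31, -2.57 and -2.29, and Kcnj14, a potassium channel, at -2.69, -2.32 and -2.41. None of these passed in adipocytes or whole fat, while all but Lipf passed on the shorter diet. Adipocytes and whole fat may come from the same mice.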
